A study of Mus musculus with 30 samples.

Results

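Open chromatin in cultured mouse brain endothelial cells (ECs) carrying stabilized beta-catenin was compared with open chromatin in WT cultures prepared by the same isolation method. The comparison takes 6 of the 30 samples of the series, all made by ATAC-seq, in which a transposase inserts sequencing adaptors into accessible DNA. Of these 6 libraries, 2 are beta-catenin stabilized cultures (R1 and R2) and 4 are WT cultures of isolation method B (R3 to R6), and both groups were selected by genotype and method alone. The stabilized cultures came from adult male Ctnnb1flex3/+;Pdgfb-CreER;Tie2-GFP mice and the WT cultures from adult male Ctnnb1flex3/+;Tie2-GFP mice. Every mouse had been given 4-hydroxytamoxifen (4HT) as a pup, so that the Cre driver is the one labelled allele that differs. The Ctnnb1flex3 allele has loxP sites around exon 3 of the gene for beta-catenin, Pdgfb-CreER places 4HT-dependent Cre under Pdgfb regulatory sequences that are active in ECs, and Tie2-GFP marks ECs. In both groups vascular fragments were obtained with a Dounce homogenizer and collagenase/dispase from the pooled brains of several mice, puromycin was used to remove other cells, and ECs were grown for 8 days. Replicates are wells, with 2 wells per experiment as the study describes for its cultures. The 4 WT wells are therefore 2 experiments (R3-R4 and R5-R6) and the stabilized wells are 1 experiment. This means that genotype and experiment cannot be told apart for the stabilized cultures. P-values here treat wells as replicates. Against all 4 WT wells, the spread they rest on also includes the difference between the 2 WT experiments.

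Beta-catenin is the transcriptional effector of canonical Wnt signaling. When the pathway is off, a complex that includes APC, AXIN and GSK3B phosphorylates residues encoded by exon 3 and marks the protein for degradation. Without exon 3 the protein escapes this step, accumulates, and acts with TCF/LEF factors on DNA. In the brain, Wnt7a, Wnt7b and Norrin acting through Frizzled receptors keep ECs in the blood-brain barrier (BBB) state, and ECs lose much of that state in culture.

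The deposited peak lists gave 79899 and 79004 peaks for stabilized R1 and R2, against 92516, 98603, 84429 and 92838 for WT R3 to R6, after removal of peaks with a fold enrichment of 2 or less or a −log10 q of 2 or less. Fold enrichment is the number of fragments piled up at the summit of a peak over the number that the local background predicts. The genome-wide background under the peaks, which scales with sequencing depth, was 4.76 and 3.73 fragments in the stabilized libraries and 6.52, 6.05, 3.73 and 4.09 in WT R3 to R6. At that background 1 more fragment was worth 0.133 to 0.211 units of fold enrichment. Joining peaks that overlapped by at least 1 bp gave 118084 regions, of which 59274 (50.2%) held a peak in all 6 libraries. The promoters of all 10 EC marker genes examined, Pecam1, Cdh5 and Cldn5 among them, held a peak in each of the 6 libraries. Of the marker promoters of other cells, 3 of 6 for pericytes, 3 of 4 for smooth muscle, 3 of 4 for astrocytes, 2 of 5 for fibroblasts, 2 of 5 for microglia, 2 of 4 for neurons and 0 of 4 for oligodendrocytes had a peak in all 6 libraries, and a peak at a promoter does not show that the gene is transcribed.

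Sequences from 6 regions are printed here because the results below refer to them. They are 300 bases around the highest summit, read on the plus strand from the RefSeq genome of build GRCm38.p6, with matches to 8 short motifs (given with the motif results) in capitals. The first pair are regions with a peak in both stabilized libraries and no WT library that hold the TCF/LEF letters, the third is a region of the same kind near the beta-catenin target Ccnd1, and the last 3 are regions where fold enrichment was higher (Dkk2, Maml3) or lower (Abca5) in the stabilized libraries. Each is named after the protein-coding gene with the nearest transcription start site (TSS), and all 6 were picked after their values were seen.
Cmip (chr8:117395113-117395412): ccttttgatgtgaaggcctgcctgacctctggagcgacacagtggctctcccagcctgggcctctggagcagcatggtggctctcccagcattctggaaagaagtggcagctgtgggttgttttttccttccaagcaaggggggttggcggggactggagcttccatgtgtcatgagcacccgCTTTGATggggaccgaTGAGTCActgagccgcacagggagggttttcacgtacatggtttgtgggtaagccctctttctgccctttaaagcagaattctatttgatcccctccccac
Wnt3 (chr11:103798675-103798974): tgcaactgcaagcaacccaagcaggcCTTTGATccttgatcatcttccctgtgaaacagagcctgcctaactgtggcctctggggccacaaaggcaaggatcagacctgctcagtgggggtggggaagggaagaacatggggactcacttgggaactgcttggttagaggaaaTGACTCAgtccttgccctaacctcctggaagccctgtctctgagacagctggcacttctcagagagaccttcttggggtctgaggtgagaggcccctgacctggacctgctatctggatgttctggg
Ccnd1 (chr7:144973480-144973779): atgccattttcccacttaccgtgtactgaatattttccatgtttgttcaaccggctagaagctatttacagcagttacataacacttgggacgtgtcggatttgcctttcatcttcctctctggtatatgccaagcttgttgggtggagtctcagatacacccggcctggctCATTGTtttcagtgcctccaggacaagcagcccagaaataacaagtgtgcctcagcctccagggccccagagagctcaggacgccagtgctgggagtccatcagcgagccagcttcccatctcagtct
Dkk2 (chr3:132113895-132114194): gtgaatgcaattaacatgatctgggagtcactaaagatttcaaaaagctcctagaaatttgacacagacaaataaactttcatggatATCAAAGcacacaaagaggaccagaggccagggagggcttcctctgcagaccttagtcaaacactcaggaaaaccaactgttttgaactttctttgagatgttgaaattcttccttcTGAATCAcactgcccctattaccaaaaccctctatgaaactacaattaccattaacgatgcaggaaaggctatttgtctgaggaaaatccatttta
Maml3 (chr3:51881942-51882241): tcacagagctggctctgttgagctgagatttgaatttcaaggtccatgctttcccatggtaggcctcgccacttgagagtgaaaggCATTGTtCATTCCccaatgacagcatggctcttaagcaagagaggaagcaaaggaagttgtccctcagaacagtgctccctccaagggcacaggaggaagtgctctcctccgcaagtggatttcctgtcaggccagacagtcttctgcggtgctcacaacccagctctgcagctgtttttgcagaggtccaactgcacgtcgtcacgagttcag
Abca5 (chr11:110358274-110358573): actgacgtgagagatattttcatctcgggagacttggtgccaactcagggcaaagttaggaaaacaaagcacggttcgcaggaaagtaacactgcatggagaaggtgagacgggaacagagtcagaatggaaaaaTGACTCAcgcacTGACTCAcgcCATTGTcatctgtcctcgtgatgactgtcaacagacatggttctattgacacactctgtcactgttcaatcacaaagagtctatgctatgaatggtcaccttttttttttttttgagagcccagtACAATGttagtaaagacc

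The first question was how far the chromatin of stabilized cultures differed from that of WT cultures, set against how far the WT experiments differed from each other. Over the 59274 shared regions, log2 fold enrichment of the 2 wells of 1 experiment correlated with a Pearson r of 0.942 to 0.951. For a stabilized and a WT well r was 0.870 to 0.885 with WT R3-R4 and 0.869 to 0.887 with WT R5-R6. The lowest values, 0.781 to 0.794, were between wells of the 2 WT experiments. By this measure the stabilized wells were closer to each WT experiment than the WT experiments were to each other. These are descriptions across regions, which are not independent, and fold enrichment carries the depth of each library.

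**Figure D1:**
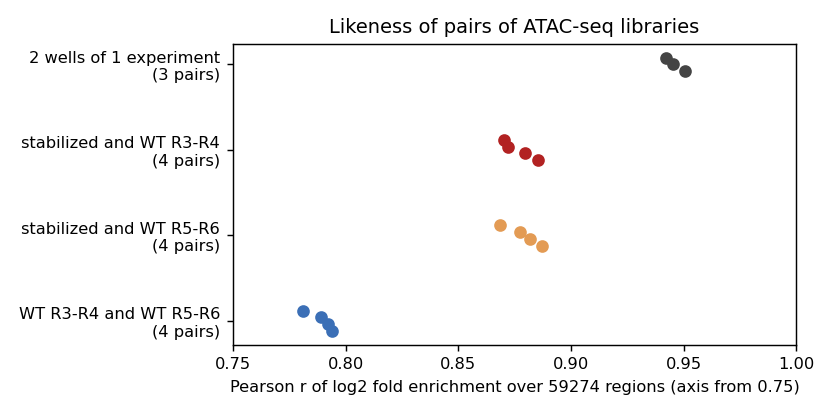
Pearson correlation of log2 fold enrichment over 59274 regions for the 15 pairs of libraries, 1 point per pair, grouped by how the wells of the pair are related. Pairs of stabilized and WT wells (0.869 to 0.887) lie between wells of 1 experiment (0.942 to 0.951) and wells of the 2 WT experiments (0.781 to 0.794).

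A principal component analysis of the scaled values gave the same order. Along component 1, with 55.2% of the variance, WT R3 and R4 (−53.3 and −54.2) lay far from WT R5 and R6 (53.4 and 51.2), and the stabilized wells lay between them at −0.4 and 3.4. Component 2, with 20.0%, separated the stabilized wells (37.9 and 35.1) from the 4 WT wells (−23.8 to −14.1).

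At single regions, no difference in fold enrichment between stabilized and WT cultures was called. With limma on quantile-scaled log2 fold enrichment, an adjusted p under 0.05 and a change over 2-fold, 0 regions were higher and 0 were lower in stabilized cultures of 59274 tested (0% called), and the lowest adjusted p was 0.169. An unadjusted p under 0.05 was reached by 4576 regions (7.72%), of which 1957 were higher and 2619 lower. The same thresholds were used between WT R5-R6 and WT R3-R4, with 2 wells against 2 and these 4 libraries scaled alone. They called 1272 regions higher (2.15%) and 1276 lower (2.15%). These counts are not on one footing, because the error of the genotype fit also includes the difference between the WT experiments. Genotype fits of 2 wells against 2 are given below. With 2 wells against 2, the median size of the difference was 0.22 log2 units between the WT experiments and 0.18 between stabilized wells and either WT experiment. The median SE of a difference between genotypes was 0.16 log2 units. The 95% interval lay wholly within 2-fold for 54204 regions (91.4%), and for the others a change over 2-fold is within the interval. This interval treats the wells as independent. With wells of an experiment treated as correlated (0.463), 2.44% of regions had an unadjusted limma p under 0.05. Because the stabilized wells are 1 experiment, the interval does not bound the effect of genotype.

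The call depended on which WT wells were used. Against WT R3-R4 alone, 190 regions were called higher (0.321%) and 215 lower (0.363%) in stabilized cultures. Against WT R5-R6 alone 0 were called in either direction (0%), with a lowest adjusted p of 0.0515. An unadjusted limma p under 0.05 was reached by 14027 regions (23.7%) against WT R3-R4 and 13375 (22.6%) against WT R5-R6. Between the WT experiments it was reached by 21281 regions (35.9%). Shares of regions over 2-fold between pairs of wells were taken from all 6 libraries scaled together. The fits of 4 libraries scaled those 4 alone, so these shares need not match the counts called. They were 0.857% for stabilized against WT R3-R4, 0.628% for stabilized against WT R5-R6, and 3.96% for WT R5-R6 against WT R3-R4. By direction, 237 were higher and 271 lower in stabilized wells than in WT R3-R4, and 146 and 226 than in WT R5-R6. These 3 contrasts share wells.

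**Figure D2:**
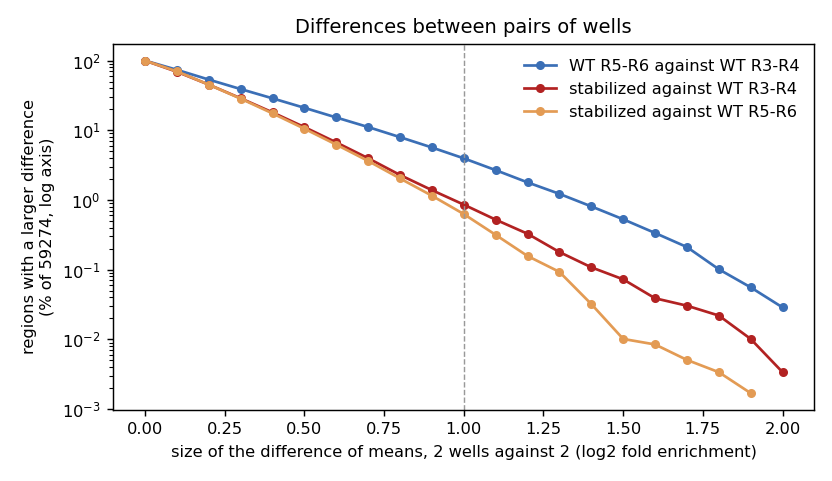
Share of the 59274 regions (percent, log axis) whose mean log2 fold enrichment differed by more than the value on the horizontal axis, for 3 contrasts of 2 wells against 2. Values of all 6 libraries were scaled together. The dashed line marks a 2-fold difference, which 3.96% of regions exceeded between the WT experiments and 0.857% and 0.628% exceeded between stabilized wells and each WT experiment.

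Regions that set the WT experiments apart took middle values in the stabilized wells. Of the 1272 regions called higher in WT R5-R6, the stabilized mean lay between the means of the 2 WT experiments at 1188 (93.4%). Of the 1276 called lower it did so at 1224 (95.9%). Medians of scaled log2 fold enrichment for the first set were 2.26 in WT R3-R4, 2.91 in stabilized and 3.49 in WT R5-R6, and for the second set 3.55, 2.94 and 2.28. The sets were chosen because the 2 WT means lay far apart, and this choice by itself favors a middle position for any other wells. No share over all regions is given beside it, so these positions are a description from which no conclusion is drawn.

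Against all 4 WT wells, the difference of means was over 2-fold at 52 regions, which were singled out after their values were seen. Fold enrichment was lower in the stabilized wells at 40 of them and higher at 12. Before scaling, some of the higher regions overlapped, as near Clec2e (10.6 and 11.8 in stabilized R1 and R2, 12.2 in WT R6). After quantile scaling, both stabilized wells lay outside the range of the 4 WT wells at all 52. Such separation of scaled values below all WT wells was found at 5030 of the regions tested (8.49%) and above all WT wells at 6772 (11.4%). Of the 40 lower regions, 21 were in introns, 18 intergenic and 1 at a promoter, 5 also had a peak in both acutely isolated EC libraries (12.5%, against 35.8% of the regions tested), and 3 were also called between the WT experiments. Of the 12 higher regions, 8 were in introns and 4 intergenic, 4 had a peak in both acute libraries, and 4 were also called between the WT experiments. These are 7.5% of the 40 and 33.3% of the 12 called between the WT experiments, against 4.30% of all regions tested. Adjusted p-values were 0.169 to 0.696.

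The lowest p of all belonged to a region in an intron of Pik3c3, which encodes the class III phosphoinositide 3-kinase of autophagy (chr18:30334745-30335729, 62664 bp downstream of the TSS). Fold enrichment there was 5.03 and 5.08 in stabilized R1 and R2 and 15.5, 15.4, 15.8 and 18.0 in WT R3 to R6. Both stabilized wells were low and the groups were far apart, with a difference of −1.48 ± 0.10 log2 units (SE) and an adjusted p of 0.169 by limma. The summits held 28 and 23 fragments in the stabilized wells against 86 to 276 in the WT wells.

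A region at −20746 bp from the TSS of Abca5 (negative distances lie upstream), which encodes a lysosomal ABC transporter (chr11:110357812-110358662), had fold enrichments of 4.51 and 5.29 in the stabilized wells and of 16.7, 18.6, 14.2 and 16.7 in the WT wells. All 4 WT wells were high, and the difference was −1.57 ± 0.18 log2 units (SE, adjusted p = 0.549). Of the 300 bases printed above, 2 stretches match the AP-1 letters. An intron region nearest to Gm6793 (chr8:112016888-112017472) measured 3.47 and 3.38 against 11.9, 14.4, 9.31 and 11.5, again with no overlap (−1.67 ± 0.22, adjusted p = 0.549). The promoter among the 40 was that of Aunip, which encodes a partner of Aurora A kinase (chr4:134510780-134511421), with fold enrichments of 4.34 and 3.38 against 14.9, 14.0, 16.1 and 9.82. Aunip mRNA was scarce in all cultures, at 0.187 to 2.1 TPM, a measure of transcript abundance per length and library, here rescaled to protein-coding genes.

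Among the regions that were higher, one in an intron of Maml3, a coactivator of Notch target genes (chr3:51881897-51882383), measured 12.9 and 12.3 in the stabilized wells and 5.98, 6.52, 6.35 and 9.04 in the WT wells. It had the lowest p of the 12, with a difference of 1.09 ± 0.13 log2 units (SE, adjusted p = 0.549). A region 1925 bp downstream of the TSS of Aida, which encodes an Axin-interacting protein (chr1:183299052-183299660), measured 15.0 and 15.7 against 8.98, 6.87, 8.68 and 8.76 (1.09 ± 0.16, adjusted p = 0.549). Aida is also the best covered of these examples, with 614 and 504 fragments at the summit in the stabilized wells and 230 to 323 in the WT wells. In the Aida and Maml3 regions both stabilized wells were above all 4 WT wells.

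Some of the 52 regions turned on the WT experiment. A region nearest to Xrcc4 (chr13:90011148-90011616) measured 10.7 and 11.0 in the stabilized wells, 3.12 and 2.81 in WT R3 and R4, and 7.51 and 8.29 in WT R5 and R6. A region nearest to Col3a1 (chr1:45419693-45420180) measured 3.12 and 4.65 in the stabilized wells, 5.05 and 6.38 in WT R3 and R4, and 16.7 and 18.2 in WT R5 and R6. At both, the WT experiments differed from each other by more than 2-fold with an adjusted p of 0.00416 and 0.00393.

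**Figure D3:**
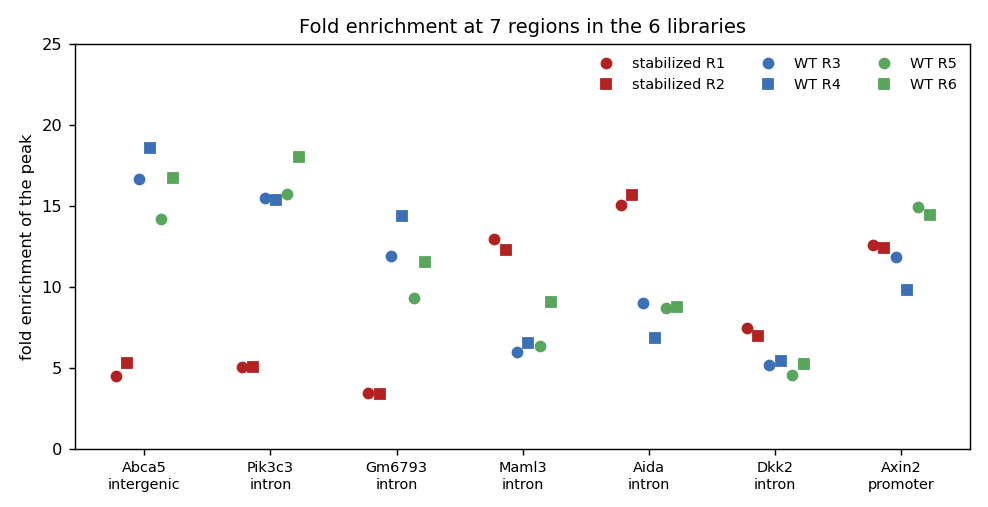
Fold enrichment of the peak (linear axis from 0) at 7 regions in the 6 libraries, 1 point per well, with circles and squares for the 2 wells of an experiment and color for the experiment. The stabilized wells lie below all WT wells at the Abca5, Pik3c3 and Gm6793 regions, above them at the Maml3, Aida and Dkk2 regions, and within their range at the Axin2 promoter.

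Presence and absence of peaks were compared next. A peak in both stabilized libraries and in no WT library was found at 218 of 118084 regions (0.185%), called stabilized-only here. A peak in all 4 WT libraries and in no stabilized library was found at 1961 (1.66%), called WT-only. This imbalance moved with the number of peaks per library. When every library was cut to its 79004 strongest peaks by −log10 q, the counts were 807 and 836 of 102994 regions. Against the WT experiments singly, 1702 regions had a peak in both stabilized wells and in neither of WT R3-R4, and 1788 in neither of WT R5-R6. In the other direction, 11291 regions had a peak in both of WT R3-R4 and in neither stabilized well, and 6929 in both of WT R5-R6 and in neither stabilized well. Between the WT experiments, 10736 were present in both of WT R3-R4 and neither of R5-R6, and 6383 the other way round. A region without a peak is one where no peak passed the filters, and it may still be weakly accessible.

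The 2 kinds of region differed in place and in their presence elsewhere. Promoters made up 5.05% of the stabilized-only regions, 8.16% of the WT-only regions and 23.0% of regions with a peak in all 6 libraries. A peak in both libraries of acutely isolated ECs was found at 16.1% of stabilized-only regions (35 of 218) and at 4.49% of WT-only regions (88 of 1961). Both shares were below the 21.1% of all 118084 regions and the 35.8% of regions in all 6. WT cultures of the other isolation method, from C57BL/6J mice, had no part in the choice. Their R1 and R2 libraries had a peak at 38 and 22 of the stabilized-only regions (17.4% and 10.1%) and at 192 and 44 of the WT-only regions (9.79% and 2.24%). Over all regions the shares were 39.5% and 25.9%. These R1 and R2 libraries had 50272 and 33032 peaks, fewer than any of the 6.

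Of the stabilized-only regions, 49 (22.5%) lay on the X chromosome, which held 2.77% of all regions and 1.68% of WT-only regions. At 26 of these 49 the nearest gene was 1 of 12 members of the Btbd35f family. These genes are near-identical copies, so that reads there may be split between copies and the regions are uncertain. Of the 49 regions, 23 had a peak in WT cultures of the other isolation method.

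The 5 stabilized-only regions with the highest fold enrichment were nearest to Gpm6a, Scimp, Bzw2, Tyms and Zadh2, with values in both wells between 4.34 and 7.61. The Gpm6a region (chr8:55373992-55374254, 419331 bp downstream of the TSS of this neuronal membrane glycoprotein gene) measured 6.42 in R1 and 6.56 in R2, from 36 and 30 fragments, and also had a peak in both acute libraries and in both WT cultures of the other isolation method. The other 4 had no peak in any of these libraries. Smaller peaks of this kind lay near genes of the lists examined. A region at −33761 bp from the TSS of Ccnd1, which encodes cyclin D1 (chr7:144973506-144973799, printed above), measured 3.47 and 4.23 from 19 fragments in each well. It was the one region near a gene of the beta-catenin target list that had a peak in both acute libraries and both stabilized libraries and in no WT library. A region 8976 bp downstream of the TSS of Nr2f2, a regulator of venous identity (chr7:70350790-70351100), measured 3.15 and 2.85 and was also present in both acute libraries.

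The 5 WT-only regions with the highest fold enrichment were nearest to Gm20594, F830045P16Rik, Dab2, St6galnac1 and Wasf2. The region nearest to Dab2, an adaptor of clathrin-mediated endocytosis (chr15:6056820-6057267), measured 14.4 and 18.5 in WT R3 and R4 but 4.23 and 4.13 in WT R5 and R6. The region nearest to St6galnac1, a sialyltransferase gene (chr11:116753967-116754735), measured 13.4, 13.9, 5.29 and 7.27 in WT R3 to R6. The region at the promoter of Gm20594, a predicted gene, measured 12.5, 12.6, 8.46 and 11.6. At all 5 regions both R3 and R4 were higher than R5 and R6.

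TCF/LEF factors are the DNA-binding partners of beta-catenin, and the letters of their motif were counted in the 300 bases around each summit, on both strands. The letters searched were CTTTGAT for TCF/LEF, TGANTCA for AP-1, GGAATG for TEAD, CCGGAA for ETS, GGGCGG for SP/KLF, ACAATG for SOX, CAGCAGG for ZIC and the core of the CTCF consensus, where the ETS and TEAD letters can overlap by 4 bases. A match is a description of the sequence and not evidence of binding, and no test was run. TCF/LEF letters were found at 22 of 218 stabilized-only regions (10.1%), 83 of 1961 WT-only regions (4.23%) and 5061 of all 118084 regions (4.29%). Without the X chromosome they were found at 15 of 169 stabilized-only regions (8.88%) and 4.27% of all. Outside promoters the shares were 10.1%, 4.39% and 4.65%. With equal numbers of peaks per library they were 61 of 807 (7.56%), 35 of 836 (4.19%) and 4.21% of all. Against single WT experiments the shares in stabilized-only regions were closer to the rest, at 5.05% for regions absent from WT R3-R4 and 5.98% for regions absent from WT R5-R6. Regions with a peak in both of WT R3-R4 and neither of WT R5-R6 had a share of 4.79%, and those the other way round 4.43%.

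Of the 22 regions, the highest fold enrichment was in an intron region nearest to Mcc (chr18:44545788-44546077), with 5.03 and 5.5 in the 2 wells. The next was in an intron and nearest to Cmip, with 4.77 and 5.29. Its TCF/LEF letters start at base 184 of the sequence printed above, and AP-1 letters start at base 200. Another lay in an intron 24675 bp downstream of the TSS of Wnt3, which encodes a Wnt ligand, with 4.68 and 4.20. There the TCF/LEF letters start at base 27. None of these 3 had a peak in an acute library or in WT cultures of the other isolation method.

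Among the 59274 regions tested, the share with TCF/LEF letters was 5.37% of the 1957 regions with an unadjusted p under 0.05 that were higher in stabilized cultures, and 3.55% of the 2619 that were lower, against 3.80% of all tested. CTCF letters went the other way, at 3.17% of the higher and 11.8% of the lower regions, against 6.10% of all tested. They were also found at 1.83% of stabilized-only and 8.16% of WT-only regions, and at 3.22% and 11.0% of these with equal numbers of peaks. The sets called between the WT experiments, at an adjusted p under 0.05 and over 2-fold, differed in AP-1 letters. AP-1 letters were found at 54.5% of the 1272 regions called higher in WT R5-R6 and 20.3% of the 1276 called lower, against 30.9% of all tested, and at 30.1% and 31.8% of the regions higher and lower in stabilized cultures at an unadjusted p under 0.05. TCF/LEF letters were found at 4.48% of the regions called higher in WT R5-R6 and 5.09% of those called lower. CTCF letters were rare in both sets called between the WT experiments, at 0.629% and 1.72%. These sets have thresholds unlike those of the stabilized sets. At a difference over 0.5 log2 units, CTCF letters were found at 1.60% of regions higher in WT R5-R6 and 4.78% of those lower. The same cut for stabilized against WT gave 0.99% of higher and 8.34% of lower regions. CTCF letters thus also differed between the WT experiments. At that cut, TCF/LEF letters were found at 5.37% of regions higher and 4.31% of regions lower in stabilized cultures. Between the WT experiments they were found at 4.18% of regions higher in WT R5-R6 and 4.54% of those lower.

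**Figure D4:**
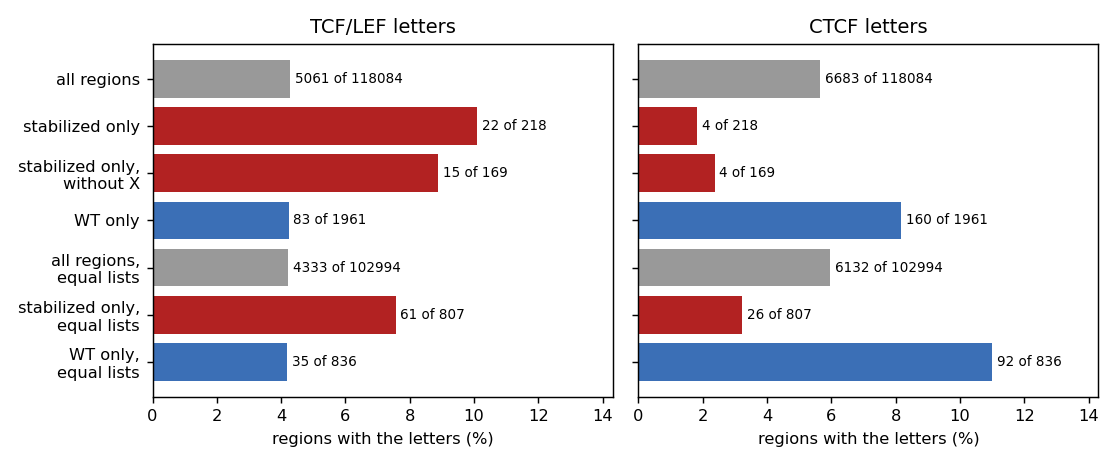
Percent of regions with the TCF/LEF letters (left) and the CTCF letters (right) in 300 bases around the summit, for all regions, regions with a peak in both stabilized and no WT library, and regions with a peak in all 4 WT and no stabilized library. Numbers beside the bars are regions with a match of all regions of that kind, and equal lists are the 79004 strongest peaks of every library. TCF/LEF letters were found at 10.1% of stabilized-only against 4.23% of WT-only regions, and CTCF letters at 1.83% against 8.16%.

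Genes known as targets of beta-catenin were examined with all regions within 50 kb that were nearest to them. The list of 18 genes had 191 regions, of which 91 were tested and 0 called by limma. An unadjusted p under 0.05 was reached by 4 regions, all higher in stabilized cultures, and by none that were lower (4.40% of the 91 against 7.72% of all tested). The median difference was 0.04 log2 units, against 0.02 over all regions tested. All 18 promoters held a peak in all 6 libraries. Of the 191 regions, 1 was stabilized-only (Ccnd1, above) and 2 were WT-only, an intron region each of Dkk2 and Spock2.

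Axin2, which encodes a negative regulator of the pathway and is the most general of its targets, had a promoter region (chr11:108920023-108920555) with fold enrichments of 12.6 and 12.4 in the stabilized wells and of 11.8, 9.82, 14.9 and 14.5 in WT R3 to R6. The stabilized wells lay between the WT experiments, and the difference was 0.22 ± 0.16 log2 units (SE, adjusted p = 0.778). Axin2 mRNA was 2.48 and 2.77 in the stabilized RNA-seq libraries and 0.22 to 0.28 in the 4 WT libraries (rescaled TPM), a ratio of means of 10.2 with no overlap, a separation that 14.1% of all genes showed in this direction. A promoter region of Lef1, a TCF/LEF factor gene (chr3:131111591-131112671), measured 7.10 and 8.10 against 7.68, 8.26, 7.31 and 7.76, and that of Tcf7, another such factor (chr11:52282497-52283605), measured 5.00 and 4.81 against 6.02, 6.04, 7.18 and 7.14. The stabilized values of Tcf7 were the lowest of the 6, with an adjusted p of 0.679. Lef1 mRNA was 15.6 and 13.0 in the stabilized libraries and 16.8 to 21.5 in the WT libraries, below all of them also as deposited. Tcf7 mRNA was 2.46 and 3.26 against 1.43 to 3.77 and overlapped.

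The 4 regions with an unadjusted p under 0.05 were near Dkk2, Apcdd1, Nkd1 and Sox17. The Dkk2 region, in an intron of this gene for a secreted Wnt regulator (chr3:132113743-132114218), measured 7.46 and 6.98 in the stabilized wells and 5.19, 5.39, 4.58 and 5.23 in the WT wells. Both stabilized wells were above all WT wells, the difference was 0.73 ± 0.13 log2 units (SE, adjusted p = 0.549), and the printed sequence holds TCF/LEF letters from base 88 on the reverse strand. Regions near Apcdd1 and Nkd1, which encode Wnt inhibitors, differed by 0.47 and 0.45 log2 units, and one at −30314 bp from the TSS of Sox17, a transcription factor gene of ECs, by 0.44. Rescaled TPM of Apcdd1 was 113 and 105 in stabilized libraries and 30.9 to 70.5 in WT libraries, and that of Nkd1 was 6.04 and 4.57 against 2.92 to 3.56. For Sox17 mRNA it was 216 and 213 against 290 to 519, lower in both stabilized libraries. As deposited, Axin2 was still above and Sox17 still below all WT libraries, while Apcdd1 and Nkd1 overlapped. Dkk2 mRNA was 17.4 and 17.3 against 2.64 to 17.1, with WT R3 and R4 low and WT R5 and R6 close to the stabilized libraries.

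The 12 genes of the pathway itself had 150 regions, of which 87 were tested and 0 called. They had 2 unadjusted p-values under 0.05 in each direction (4.60% of the 87) and a median difference of 0.04 log2 units. The promoter region of Ctnnb1, the gene that carries the engineered allele (chr9:120933128-120933894), measured 12.0 and 9.42 in the stabilized wells and 9.19, 9.45, 14.0 and 13.8 in the WT wells, with no difference beyond the spread (0.15 ± 0.18 log2 units, SE, adjusted p = 0.879). Peak lists do not show whether exon 3 is deleted, and the share of recombined cells was not measured here. Ctnnb1 mRNA was 779 and 828 in the stabilized libraries and 380 to 632 in the WT libraries (rescaled TPM), and overlapped between the groups as deposited. Of 55 regions within 200 kb of Pdgfb, whose regulatory sequences drive Cre, 27 were tested and 0 called. An unadjusted p under 0.05 was reached by 2, both higher (7.41% of the 27 against 7.72% of all tested).

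Near genes of the BBB, low p-values fell on both sides. The 20 transporters and regulators had 187 regions, of which 83 were tested and 0 called, with 3 unadjusted p-values under 0.05 for higher and 5 for lower values (9.64% of the 83 against 7.72% of all tested). WT-only regions numbered 7 (3.74% of the 187 against 1.66% of all regions) and stabilized-only regions 0. Near Slc2a1, the glucose transporter gene, a region at −2795 bp from the TSS (chr4:119105664-119106173) measured 10.2 and 9.85 against 7.92, 7.92, 10.3 and 10.0, while one at −36939 bp (chr4:119071332-119072060) measured 2.62 and 3.48 against 5.64, 4.67, 4.87 and 4.11. At the first the stabilized wells were level with WT R5-R6 and at the second they were below all WT wells. No promoter peak was found in any of the 6 libraries for Slco1c1, Slco1a4, Slc22a8, Slc38a5 and Foxq1, which are transporter genes and a transcription factor gene of brain ECs. The wider list of 279 BBB genes named by the study had 1378 regions tested, with 54 unadjusted p-values under 0.05 for higher and 44 for lower values (7.11%) and a median difference of 0.05. The 154 pan-EC genes had 963 regions tested, with 32 and 28 (6.23%), also at a median of 0.05.

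Junction genes gave the largest share of low p-values among the lists of EC and signaling genes. Of 74 regions tested near 10 junction genes, 7 were higher and 6 lower at an unadjusted p under 0.05 (17.6%), 0 were called, and the median difference was 0.02 log2 units. Over all 59274 regions tested, 1957 were higher and 2619 lower at that p (7.72%). Ocln, which encodes occludin, had a region at −29660 bp from its TSS (chr13:100581727-100582550) at 3.96 and 3.28 in the stabilized wells and 5.37, 5.41, 8.57 and 9.97 in the WT wells. For the AP-1 and YAP/TEAD genes, 9 of 94 regions were higher and 1 lower at that p, with a median of 0.06. Among the 9 were regions near Jun and Ccn2, the second a gene activated by YAP. The region at −3524 bp from the TSS of Ccn2 (chr10:24591736-24592713) measured 5.51 and 5.15 against 4.39, 4.47, 4.26 and 4.54. For 14 general EC genes 1 region was higher and 5 lower of 124, for arterial and venous genes 1 and 1 of 53, for fenestrated or tip cell genes 1 and 1 of 43, and for proliferation genes 0 of 11. Among regions near marker genes of other cells, such p-values were all for lower values, at 2 of 14 regions for fibroblasts, 1 of 13 for astrocytes, 1 of 9 for oligodendrocytes and 3 of 9 for neurons, with 0 for pericytes, smooth muscle and microglia. Lower values were also the more frequent at that p over all regions tested (2619 against 1957), and the counts for marker genes are too small to give a direction.

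Whether stabilization brought cultures closer to acutely isolated ECs was assessed from 28421 regions with a peak in both libraries of acutely isolated ECs (GFP-sorted from the brains of adult male Tie2-GFP mice). A peak was present at 80.5% and 79.6% of them in stabilized R1 and R2 and at 83.9%, 84.6%, 78.4% and 79.8% in WT R3 to R6. The stabilized wells lay within the WT range, with a difference of means of −1.62 percentage points (two-sided exact permutation test, p = 0.533, adjusted over 4 sets p = 0.533). With equal numbers of peaks the values were 80.2% and 79.6% against 80.8%, 80.4%, 76.7% and 76.3%, and the difference turned to 1.37 points. With 2 wells against 4, the smallest p that this test can give is 0.067. Of 3777 acute regions with no peak in any WT library, 33 had a peak in both stabilized libraries and 107 in 1 of them. Of 5087 with no peak in a stabilized library, 97 had one in all 4 WT libraries.

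For the 1050 acute regions near BBB genes, the shares were 72.0% and 70.8% in stabilized wells and 70.7% to 78.5% in WT wells (difference −3.17 points, two-sided exact permutation test, p = 0.267, adjusted p = 0.444). WT libraries lacked a peak at 199 of them, and 2 of these had a peak in both stabilized libraries. For the 650 regions near pan-EC genes the difference was −2.69 points (two-sided exact permutation test, p = 0.333, adjusted p = 0.444). For the 76 regions near beta-catenin targets, the shares of 59.2% and 60.5% in stabilized wells were below the 63.2% to 65.8% of WT wells. That difference of −4.28 points had the smallest p the test allows (two-sided exact permutation test, p = 0.067, adjusted p = 0.267), and the stabilized lists hold fewer peaks.

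Transcripts of the nearest genes were compared in the RNA-seq libraries of the same genotypes and isolation method, stabilized R3 and R4 and WT R3 to R6. The libraries of WT R3 and R4 came from another facility and were sequenced for 150 cycles and the other 4 for 36, so that the WT range spans 2 protocols. The small non-coding RNA Rn7s1 took 40.9% to 45.5% of TPM in WT R5, WT R6 and both stabilized libraries but 0.509% and 0.596% in WT R4 and R3. TPM was therefore also rescaled to protein-coding genes, a choice made after this was seen. As deposited, 228 of 11297 genes (2.02%) were above all WT libraries and 4270 (37.8%) below. After rescaling these were 1656 (14.1%) and 1468 (12.5%) of 11713. Of 76 rescaled genes nearest to stabilized-only regions within 50 kb, 19 were above all WT libraries (25.0%) and 4 below (5.26%). Of 837 nearest to WT-only regions, 128 were above (15.3%) and 91 below (10.9%), close to all genes. As deposited the first set had 3 above and 24 below of 74, and the second 29 and 295 of 807. Against the 36-cycle WT libraries alone, also as deposited, 20 of 74 in the first set were above (27.0%, against 22.2% of all genes) and 32 below (43.2%, against 45.9%). Summed rescaled TPM of the 10 EC markers was 4183 and 4403 in the stabilized libraries and 3327 to 3927 in the WT libraries. Of 4 smooth muscle genes, which include Acta2 and Tagln, it was 6528 and 6118 against 2148 to 7594, low in WT R3 and R4, and the part of this in the results was not tested. The highest summed level in any library was 12.7 for pericyte, 31.0 for fibroblast, 4.90 for microglia, 2.83 for astrocyte, 1.74 for oligodendrocyte and 5.10 for neuron markers. Under 1 TPM in every library were 3 of 6 pericyte, 2 of 5 fibroblast, 4 of 5 microglia and 3 of 4 each of the astrocyte, oligodendrocyte and neuron markers.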

How the data were processed

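Peaks had been called by the authors in each ATAC-seq library with MACS2 2.1.2 after alignment with HISAT2 2.1.0 to GRCm38 and removal of duplicates, per the labels and the study's methods. The deposited lists give for each peak a fold enrichment (a ratio over local background), a −log10 p, a −log10 q and a score derived from q, with no counts. Whole fragment numbers at the summit were recovered from fold enrichment and −log10 p. Lists were filtered at a fold enrichment over 2 and a −log10 q over 2 on chromosomes 1 to 19, X and Y, and joined over the 6 libraries by 1 bp overlap. The highest fold enrichment of a library in a region was used. Regions with a peak in all 6 libraries were tested on log2 fold enrichment after quantile scaling with limma 3.58.1 in R 4.3.3, with Benjamini-Hochberg adjustment. The procedure was also run on simulated data with planted changes larger than any difference found here against the 4 WT wells. That run does not show whether smaller changes would be called. Regions were assigned to the nearest protein-coding TSS of GENCODE M21, and a promoter is a region within 1 kb of a TSS. RNA-seq TPM values and estimated counts had been made by the authors with Salmon 0.14.0, and TPM was summed per gene.

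The members and lists were chosen with earlier results of these data known. Named were the 5 patterned regions with the highest mean fold enrichment of each kind, members of the gene lists, regions around Pdgfb and called regions, of which there were 0, and other regions are said to be chosen after their values were seen. Alternatives covered filters, scaling, joining, the WT experiment and each library left out. Fragment counts carry counting error only. The numbers of peaks per library and the background of 3.73 to 6.52 fragments limit what could be detected.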

Additional observations from a re-analysis of the deposited data

Results flagged for a closer look

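Of 60 sets of 4 WT values that were examined for 1 value far from the rest, 2 stood out, where chance alone gives about 5%. At the Pik3c3 intron region, WT R6 (18.0) was above the other WT wells (15.4 to 15.8), and this gap was 0.857 of the range of the 4. At the Aida region, WT R4 (6.87) was below the others (8.68 to 8.98), with a gap of 0.861 of the range. In both cases the stabilized wells stayed outside all WT values.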

How the results depend on the processing

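No paired analysis was possible because neither the labels nor the study's methods pair a stabilized well with a WT well. In fold enrichment, 0 regions were called in either direction by limma under every alternative that kept both stabilized wells, except against WT R3-R4 alone, with 190 higher and 215 lower. These alternatives were scaling, minimum fold, regions with fewer peaks, wells of an experiment treated as correlated, the mean over a region's peaks, limma with trend and robust settings, summit pileup as an alternative chosen after seeing the data, and each WT library left out. Dropping the minimum fold could add no call, because the lowest adjusted p of the main limma fit was 0.169. Experiment means and fits without 1 stabilized well leave a single stabilized value, so their calls are not counted here. Without scaling the median difference over all regions was −0.18 log2 units. Between the WT experiments the counts without a minimum fold were 6776 higher and 6243 lower, and 972 to 1553 and 1095 to 1455 with 1 library left out.

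Peak patterns moved more. Stabilized-only and WT-only counts were 807 and 836 with equal lists, 1702 and 11291 against WT R3-R4, and 1788 and 6929 against WT R5-R6. The stabilized-only count was 511 when summits within 250 bp were joined. With 1 library left out the counts were 282 to 1261 and 2455 to 4319. Leaving out stabilized R1 (1118) or R2 (1261) or WT R4 (379) or R6 (393) moved the first by over 1.5 times, and stabilized R1 (4319), stabilized R2 (4016) or WT R5 (3667) the second. The difference in acute regions turned to 1.37 points with equal lists and 0.954 against WT R5-R6, and was −2.72 to −0.643 with 1 library left out. Genes nearest to patterned regions without overlap in TPM numbered 351 (39.8%, and 39.8% of all genes), 620 with the 36-cycle WT libraries alone (70.4%, and 68.2% of all) and 242 after rescaling (26.5%, and 26.7% of all). The causes of these changes were not tested, and 2 wells of 1 stabilized experiment limit every comparison.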
